A study of Mus musculus with 12 samples.

Results

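The 10 genes described here carry out or report glucocorticoid action: Hsd11b1 and Hsd11b2, which activate and inactivate the hormone inside cells, and Fkbp5, Tsc22d3, Zbtb16, Per1, Sgk1, Klf9, Mt1 and Mt2, all known to be induced by glucocorticoids in some cell types. They are a list of 10 names out of the 55228 genes in both count tables, and 10 of 10 had enough counts to be tested. The RNA came from bladder and urethral mesenchyme of wild-type, untreated female CD-1 mouse embryos, with 3 libraries in each of 4 groups: E18.5 bladder, E14.5 bladder, E18.5 urethra and E14.5 urethra, where E gives the days after conception. Each library pooled the tissue of the female embryos of 1 litter, with 3 litters at each stage that gave both compartments. In all groups the mesenchyme had been freed from the epithelium with cold trypsin and forceps. Whether this handling acted alike on the tissue of both stages was not tested. Counts of the 2 stages came in separate tables, so any difference in how they were made cannot be told apart from stage. The urethral piece is called pelvic in the design text and proximal in the extraction protocol.

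Glucocorticoids, corticosterone in mice, enter cells and bind the glucocorticoid receptor, which is held in the cytoplasm by heat-shock chaperones and their FK506-binding partners and then moves to the nucleus to bind DNA. How much active hormone reaches the receptor depends on a pair of 11β-hydroxysteroid dehydrogenases. The type 1 enzyme, Hsd11b1, regenerates active hormone from the inert 11-keto form, and the type 2 enzyme, Hsd11b2, inactivates it. Fetal glucocorticoid levels climb late in gestation in mice and drive the maturation of organs such as the lung. The labels do not name hormone levels or the hour of collection, and neither was measured here.

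RefSeq promoter windows in GRCm38.p6 (250 bases before to 50 after a transcription start, 300 in all) were matched by symbol for 8 of the 10 genes, with 16 windows, since Sgk1, Tsc22d3 and Per1 have several starts; Hsd11b2 and Zbtb16 were not matched. Both strands were searched for the palindromic glucocorticoid response element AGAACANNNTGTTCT, where N is any base. It was present in 1 of the 16 windows, at an Sgk1 start, and in 3 of all 32851 windows of this length (0.00913%). That window, chr10:21993640-21993939 on the plus strand, is shown 5′ to 3′ because it holds the full element, in capitals, whose first base lies at -189 from the start.
Sgk1: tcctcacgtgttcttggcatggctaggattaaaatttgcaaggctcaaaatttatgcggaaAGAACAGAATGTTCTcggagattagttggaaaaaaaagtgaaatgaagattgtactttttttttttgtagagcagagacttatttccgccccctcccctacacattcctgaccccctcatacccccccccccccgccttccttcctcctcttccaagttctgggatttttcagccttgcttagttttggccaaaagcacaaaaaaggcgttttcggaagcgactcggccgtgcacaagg
The metallothionein windows are shown for the metal response element core, TGCACNC or TGCGCNC, which 25.7% of all windows held on either strand, and 5 of these 16 (Mt1, Mt2, Hsd11b1 and 1 window each of Per1 and Sgk1). Mt1 had 3 matches in chr8:94178839-94179138 and Mt2 had 4 in chr8:94172368-94172667, both on the plus strand and with the matches in capitals.
Mt1: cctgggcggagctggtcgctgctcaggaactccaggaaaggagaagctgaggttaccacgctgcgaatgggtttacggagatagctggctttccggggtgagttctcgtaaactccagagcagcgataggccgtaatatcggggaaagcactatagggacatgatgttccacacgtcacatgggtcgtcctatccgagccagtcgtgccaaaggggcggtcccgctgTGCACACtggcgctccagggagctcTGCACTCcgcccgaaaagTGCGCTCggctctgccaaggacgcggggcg
Mt2: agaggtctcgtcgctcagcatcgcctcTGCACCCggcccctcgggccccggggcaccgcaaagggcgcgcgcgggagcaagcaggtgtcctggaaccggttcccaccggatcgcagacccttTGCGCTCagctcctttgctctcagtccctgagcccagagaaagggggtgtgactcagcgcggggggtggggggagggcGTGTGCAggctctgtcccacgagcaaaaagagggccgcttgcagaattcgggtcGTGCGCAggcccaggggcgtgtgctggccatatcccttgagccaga
Of the 2 Per1 windows, the one at chr11:69098699-69098998 on the plus strand held the E-box CACGTG that clock factors bind, in capitals, as did 7.15% of all windows and 3 of these 16 (with Fkbp5 and the Sgk1 window printed above).
Per1: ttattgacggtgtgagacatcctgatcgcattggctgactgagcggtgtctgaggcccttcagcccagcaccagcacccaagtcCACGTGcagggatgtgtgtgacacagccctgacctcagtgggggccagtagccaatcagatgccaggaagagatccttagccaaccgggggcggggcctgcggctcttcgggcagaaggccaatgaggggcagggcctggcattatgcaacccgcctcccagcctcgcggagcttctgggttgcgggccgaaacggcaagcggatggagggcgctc
The shorter AGAACA, which is 1 arm of the full element and overlaps it, was present in 19% of all windows and in 4 of these 16, of which 3 belong to Sgk1 and 1 to Tsc22d3. A match is only a run of letters in these windows, and occupancy by a factor was not measured.

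Library totals were 21495169 to 36349777 counts, and 3 counts corresponded to 0.0761 to 0.161 CPM (counts relative to the TMM-adjusted library total, the scale of all levels below). This floor of 3 counts covers counting error only. On the first principal component, E14.5 replicate 1 of each compartment stood closer to E18.5 than replicates 2 and 3 did. The mesenchyme libraries also held other cell types: the summed level of 12 epithelial markers was 8002 to 10663 CPM in E18.5 bladder against 260.3 to 1391 CPM in E14.5 bladder, and 2429.7 to 3567 CPM in E18.5 urethra against 615 to 1376 CPM in E14.5 urethra. Within both E14.5 groups replicate 1 held the most, with 1391 CPM in bladder and 1376 CPM in urethra. Of these 12 markers, 12 were called higher at E18.5 in bladder and 6 in urethra, and none had 0 counts over a group. The 7 mesenchymal markers summed to 27618 to 33094 CPM in E18.5 bladder, 19209 to 25779 CPM in E14.5 bladder, 15951 to 17945 CPM in E18.5 urethra and 7854 to 11900.5 CPM in E14.5 urethra. Smooth muscle markers (5 genes) summed to 19882 to 36119 CPM in E18.5 bladder, 6026 to 7856 CPM in E14.5 bladder, 2205 to 2551 CPM in E18.5 urethra and 1535 to 3343 CPM in E14.5 urethra. Of the other marker lists, mast cell (3 of 3 genes in bladder and 3 of 3 in urethra), skeletal muscle (3 of 5 and 5 of 5), leukocyte (2 of 6 and 6 of 6), mesothelial (2 of 4 and 3 of 4) and glial genes (2 of 4 and 1 of 4) included some called higher at E18.5. The skeletal muscle regulators Myod1 and Myog were not among those called in bladder. They held 4 and 22 counts over the E18.5 bladder libraries against 42 and 102 over E14.5 bladder. In urethra 1 mesothelial gene was called lower. In such bulk samples fewer cells of a type and less RNA per cell cannot be told apart, and the part of other cell types in the results below was not tested.

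The comparison of E18.5 with E14.5 asks how these genes stood late in gestation. In bladder mesenchyme, 7 of the 10 genes rose and 1 fell by edgeR's quasi-likelihood test at an adjusted p under 0.05, while 23.7% of all genes tested were called higher, 22.0% lower and 45.7% in either direction. In urethral mesenchyme, 5 rose and 1 fell, while 13.6% of all genes were called higher, 10.8% lower and 24.4% in either direction. The stages did not overlap in any library for 8 of the 10 genes in bladder, against 55.8% of all genes, and for 6 of 10 in urethra, against 44.0% of all genes. The median log2 difference of the 10 genes was 1.61 in bladder and 0.85 in urethra, beside -0.02 and -0.06 over all 18805 genes tested. Hsd11b1, Zbtb16, Klf9 and Per1 rose in both compartments and Hsd11b2 fell in both. Fkbp5, Mt1 and, by a small margin, Tsc22d3 were called higher in bladder, and Sgk1 was called higher in urethra. Whether a stage change differs between the compartments is tested separately below. Log2 differences are given ± SE, positive where E18.5 (or, further on, bladder) was higher.

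**Figure D1:**
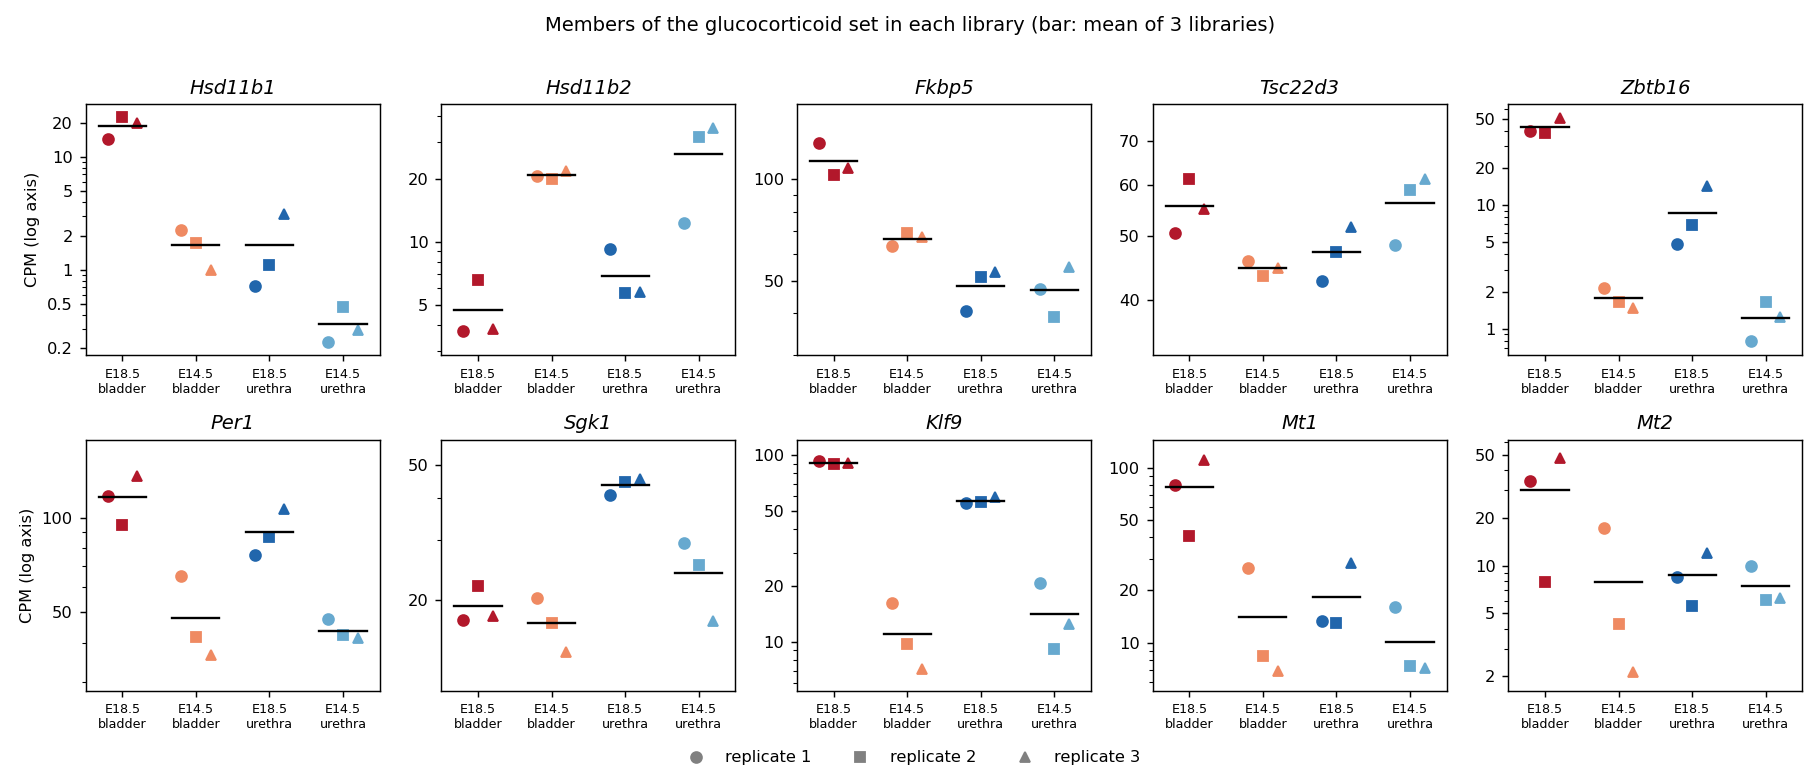
Level of each of the 10 genes in each of the 12 libraries, in CPM on a log axis whose range differs between panels, by stage and compartment; the symbol gives the replicate number and the bar the mean of 3 libraries. In Hsd11b1, Zbtb16, Klf9 and Per1 every E18.5 library lies above every E14.5 library of its compartment, and in Hsd11b2 every one lies below.

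Hsd11b1 codes for the enzyme that regenerates active glucocorticoid (chromosome 1 from 193221634 to 193264075, GRCm38, as all positions here). It stood at 14.6, 22.5 and 20.00 CPM in the 3 E18.5 bladder libraries, against 2.24, 1.74 and 0.995 CPM in E14.5 bladder (log2 difference 3.52 ± 0.50, adjusted p = 0.000161, 11.5-fold). All 3 E18.5 bladder libraries lay far above the E14.5 ones, with no overlap. In urethra it was lower throughout, at 0.710, 1.11 and 3.13 CPM at E18.5 against 0.227, 0.471 and 0.294 CPM at E14.5 (log2 difference 2.27 ± 0.55, adjusted p = 0.0114). The urethral groups did not overlap either, but the E14.5 libraries held only 6 to 18 counts each and replicate 3 carried the E18.5 mean. Without E18.5 urethral replicate 3 the urethral difference was 1.39 and no longer called (adjusted p = 0.0574); without E14.5 urethral replicate 3 it also missed the threshold (adjusted p = 0.0518), as it did by limma-voom (adjusted p = 0.0543). Fat cells express Hsd11b1 strongly. Their defining markers Adipoq, Plin1 and Cidec held 0 to 8 counts summed over the 3 libraries of any group, while Fabp4, which capillary cells and macrophages also express, made up nearly all of the summed adipocyte list (193 to 526 CPM in E18.5 bladder, 7.27 to 17.1 CPM in E14.5 bladder, 15.8 to 83.2 CPM in E18.5 urethra and 0.994 to 1.21 CPM in E14.5 urethra). The 3 mast cell markers summed to 24.0, 45.9 and 34.3 CPM in E18.5 bladder replicates 1, 2 and 3, against 1.82 to 2.57 CPM in E14.5 bladder. In urethra they summed to 5.56, 7.05 and 13.7 CPM at E18.5 against 0.643 to 1.25 CPM at E14.5. The part of fat cells, mast cells or any other cell type in the Hsd11b1 result was not tested.

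Hsd11b2 codes for the enzyme that inactivates glucocorticoid (chromosome 8 from 105518755 to 105523988) and, in kidney epithelium, shields the mineralocorticoid receptor from it. It moved the other way, with 3.74, 6.60 and 3.84 CPM in E18.5 bladder against 20.6, 20.01 and 21.8 CPM in E14.5 bladder (log2 difference -2.15 ± 0.37, adjusted p = 0.000569). In urethra it had 9.24, 5.70 and 5.79 CPM at E18.5 against 12.3, 31.8 and 34.9 CPM at E14.5 (log2 difference -1.93 ± 0.36, adjusted p = 0.00311). It fell 4.43-fold in bladder and 3.80-fold in urethra, with no overlap of the stages in either. The summed epithelial markers given above were higher at E18.5 over the same stages, and the part of epithelial cells in the Hsd11b2 values was not tested.

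Levels of different genes can be set side by side only per length of exon. Per kilobase of exon, the ratio of Hsd11b1 to Hsd11b2 was 1.69, 1.48 and 2.25 in the 3 E18.5 bladder libraries, against 0.0471, 0.0376 and 0.0198 in E14.5 bladder. In urethra the ratio was 0.0333, 0.0841 and 0.234 at E18.5, against 0.00799, 0.00641 and 0.00364 at E14.5. Only in the 3 E18.5 bladder libraries was the activating enzyme the more abundant transcript, and in the other 9 the inactivating one was. These ratios describe transcripts, and no enzyme activity was measured.

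**Figure D2:**
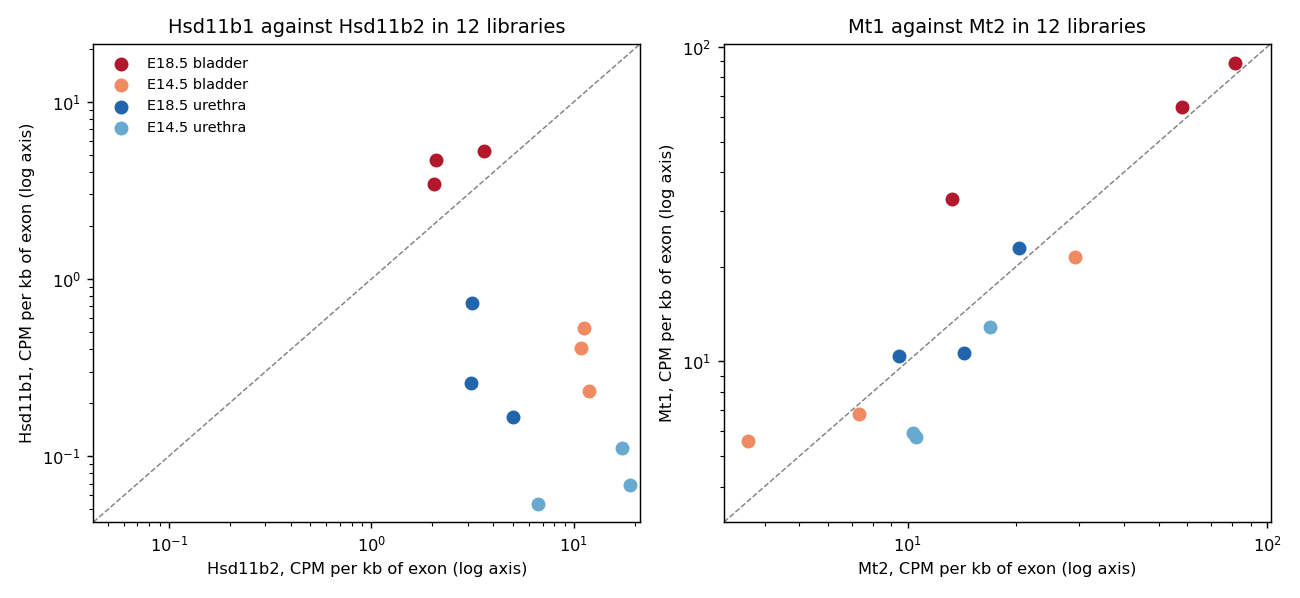
Left, Hsd11b1 against Hsd11b2, and right, Mt1 against Mt2, in CPM per kilobase of exon in each of the 12 libraries, both axes logarithmic, with the dashed line marking equal levels. The 3 E18.5 bladder libraries alone lie above the line at left, and at right the metallothioneins spread along the line.

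Zbtb16, a zinc finger transcription factor (PLZF) that glucocorticoid induces in several cell types (chromosome 9 from 48654297 to 48836222), had the largest stage difference of the 10 genes in each compartment. It had 40.1, 38.9 and 50.5 CPM in E18.5 bladder against 2.15, 1.66 and 1.47 CPM in E14.5 bladder (log2 difference 4.62 ± 0.40, adjusted p = 9.7e-06, 24.5-fold). Urethral levels were 4.85, 6.92 and 14.2 CPM at E18.5 against 0.794, 1.65 and 1.25 CPM at E14.5 (log2 difference 2.79 ± 0.38, adjusted p = 0.00061, 6.93-fold). The lowest E18.5 library of each compartment lay above the highest E14.5 one. Replicate 3 was the highest E18.5 urethral library, as it was for Hsd11b1. As deviations from the group means, the log2 CPM of Zbtb16 and Hsd11b1 had a Pearson's r of 0.908 over the 12 libraries. Among all pairs of the 10 genes, r was higher for Per1 with Mt1 (0.949) and for Mt1 with Mt2 (0.918).

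Klf9, a Krüppel-like transcription factor induced by glucocorticoid and thyroid hormone (chromosome 19 from 23141226 to 23168134), had 92.7, 89.5 and 90.7 CPM in E18.5 bladder against 16.1, 9.78 and 7.14 CPM in E14.5 bladder (log2 difference 3.05 ± 0.31, adjusted p = 2.55e-05, 8.28-fold). Urethral Klf9 stood at 55.5, 56.01 and 59.5 CPM at E18.5 against 20.8, 9.11 and 12.5 CPM at E14.5 (log2 difference 2.02 ± 0.30, adjusted p = 0.00108, 4.05-fold). The E18.5 replicates were close to each other in both compartments, while at E14.5 replicate 1 was the highest of each group, as it was for the epithelial markers; the part of those cells in this spread was not tested.

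Per1 is a repressor of the circadian clock with glucocorticoid-responsive transcription (chromosome 11 from 69095217 to 69109960). It had 117, 95.2 and 136 CPM in E18.5 bladder against 65.3, 41.9 and 36.6 CPM in E14.5 bladder (log2 difference 1.28 ± 0.21, adjusted p = 0.00039). In urethra it had 75.9, 86.7 and 107 CPM at E18.5 against 47.5, 42.3 and 41.4 CPM at E14.5 (log2 difference 1.04 ± 0.21, adjusted p = 0.00439). The stages did not overlap in either compartment, and E14.5 bladder replicate 1 stood above its 2 companions. Hour of collection, which moves clock genes, cannot be told apart from stage here, because each litter was collected once.

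Fkbp5, an FK506-binding chaperone partner that lowers the receptor's affinity for hormone and is itself a receptor target (chromosome 17 from 28399094 to 28517527), had 129, 103 and 108 CPM in E18.5 bladder against 63.3, 69.2 and 67.5 CPM in E14.5 bladder (log2 difference 0.76 ± 0.15, adjusted p = 0.0011, 1.70-fold). The urethral libraries had 40.5, 51.4 and 52.98 CPM at E18.5 against 47.1, 38.99 and 54.96 CPM at E14.5, and the groups overlapped (log2 difference 0.04 ± 0.15, adjusted p = 0.868). The 95% interval of the log2 difference ran from -0.30 to 0.37 in urethra and from 0.43 to 1.10 in bladder. Whether the 2 differences differ is tested by the interaction below, whose call ended in 14 of 19 alternatives. All intervals here are the log2 difference with its SE scaled for 8 residual degrees of freedom.

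Tsc22d3, the glucocorticoid-induced leucine zipper protein GILZ (X chromosome from 140539528 to 140600659), differed little. It had 50.6, 61.1 and 54.98 CPM in E18.5 bladder against 45.8, 43.5 and 44.7 CPM in E14.5 bladder (log2 difference 0.31 ± 0.12, adjusted p = 0.0476). Its bladder groups did not overlap, but the call was lost in 8 of 14 alternatives (adjusted p from 0.0278 to 0.157 over all 14), among them leaving out any 1 of the 3 E14.5 bladder libraries or replicate 2 or 3 of E18.5 bladder. In urethra it had 42.8, 47.4 and 51.6 CPM at E18.5 against 48.6, 58.8 and 61.2 CPM at E14.5 and was not called (log2 difference -0.25 ± 0.12, adjusted p = 0.147).

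Sgk1, a serum- and glucocorticoid-inducible kinase that raises sodium transport (chromosome 10 from 21882184 to 21999903), followed the opposite order of compartments. It had 17.5, 21.99 and 17.9 CPM in E18.5 bladder against 20.2, 17.03 and 14.1 CPM in E14.5 bladder, with overlapping groups (log2 difference 0.16 ± 0.20, adjusted p = 0.526). Urethral Sgk1 stood at 40.7, 44.5 and 45.5 CPM at E18.5 against 29.5, 25.2 and 17.3 CPM at E14.5 (log2 difference 0.86 ± 0.19, adjusted p = 0.0078, 1.81-fold), and the E18.5 libraries lay above all E14.5 ones. Of the 8 genes with a promoter window, it was the one with the full response element printed above. Sgk1 also had 6 of the 16 windows, 1 of which held the element, while Hsd11b1, Fkbp5, Klf9, Mt1 and Mt2 had 1 window each.

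Mt1 and Mt2, small cysteine-rich proteins that bind zinc and other metals and are induced by metals, by oxidative stress and by glucocorticoid, lie on chromosome 8 with Mt2 from 94172664 to 94173568 and Mt1 from 94179082 to 94180327. Mt1 had 80.05, 40.9 and 111 CPM in E18.5 bladder against 26.8, 8.45 and 6.96 CPM in E14.5 bladder (log2 difference 2.46 ± 0.60, adjusted p = 0.00648, 5.50-fold), with no overlap. Mt2 had 34.04, 7.83 and 47.8 CPM in E18.5 bladder against 17.2, 4.31 and 2.12 CPM in E14.5 bladder, overlapped and narrowly missed the threshold (log2 difference 1.93 ± 0.76, adjusted p = 0.0581). These values varied widely within groups. E14.5 bladder replicate 1 was high for both genes, and without it the differences were 3.34 for Mt1 and 3.23 for Mt2, the Mt2 one then called (adjusted p = 0.00296). Mt2 was also called without E18.5 bladder replicate 2, its lowest E18.5 library (2.38, adjusted p = 0.0208), by DESeq2 (adjusted p = 0.0369) and by limma-voom (adjusted p = 0.0253).

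In urethra Mt1 had 13.3, 12.99 and 28.5 CPM at E18.5 against 16.04, 7.38 and 7.16 CPM at E14.5 (log2 difference 0.85 ± 0.58, adjusted p = 0.318), and Mt2 had 8.42, 5.57 and 12.01 CPM against 9.98, 6.07 and 6.20 CPM at those stages (log2 difference 0.23 ± 0.74, adjusted p = 0.849). Both sets of groups overlapped and neither gene was called; without replicate 1 of both E14.5 groups Mt1 was (1.33, adjusted p = 0.035). Mt1, Mt2 and Per1 ordered the E18.5 bladder libraries alike, with replicate 3 highest and replicate 2 lowest, and in both E14.5 groups replicate 1 was the highest for all 3 genes. The summed epithelial markers had the same order in E18.5 bladder (8950, 8002 and 10663 CPM in replicates 1, 2 and 3) and the same highest replicate in both E14.5 groups. In E18.5 urethra replicate 2 was highest for the markers and replicate 3 for the 3 genes. The part of epithelial cells in these orders was not tested. Exons of the predicted gene Gm45774 on the opposite strand cover 73.5% of those of Mt2, and the strand setting of the counting is not stated, so the level of Mt2 is uncertain; Gm45774 itself held 0 to 6 counts per library. The paired coding genes are similar in sequence, and how reads shared by both were counted is not stated.

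**Figure D3:**
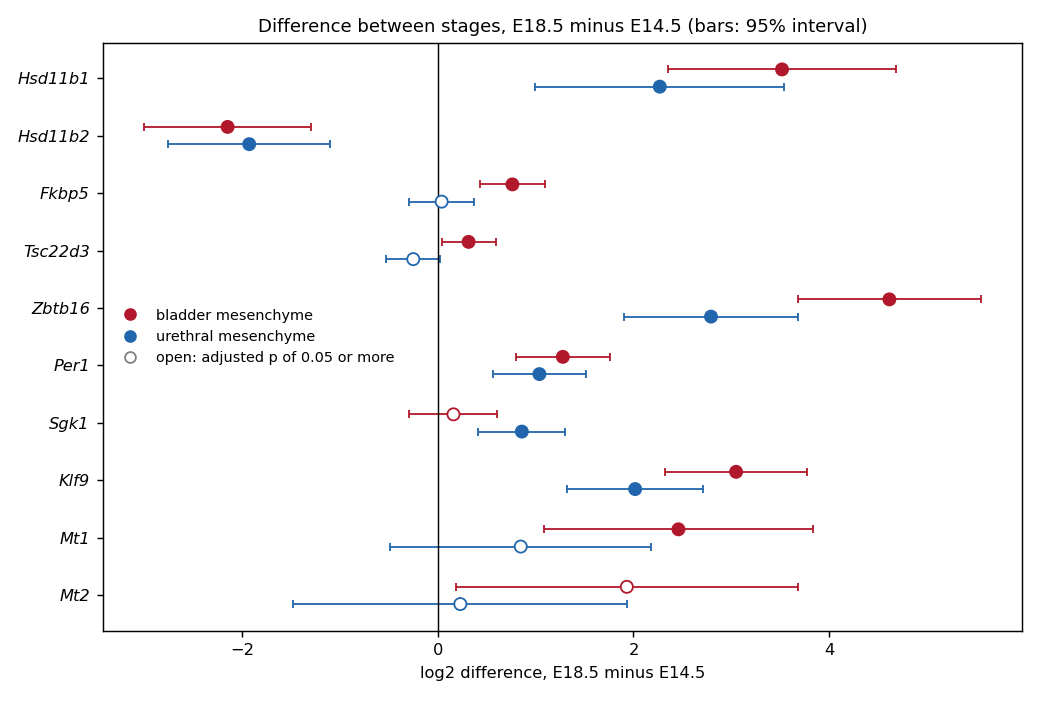
Log2 difference between stages (E18.5 minus E14.5) of each of the 10 genes in bladder and urethral mesenchyme, with 95% intervals; filled points have an edgeR adjusted p under 0.05. Hsd11b1, Zbtb16, Per1 and Klf9 lie right of 0 and Hsd11b2 left of it in both compartments, each interval clear of 0.

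At E18.5, the comparison of bladder with urethral mesenchyme called 5 of the 10 genes, while it called 34.8% of all genes tested. Hsd11b1, Fkbp5, Zbtb16 and Mt1 were higher in bladder, and Sgk1 was lower in bladder. The compartments did not overlap for 6 of the 10 genes, those 5 and Klf9, against 52.1% of all genes. From the levels given above, the log2 difference was 3.52 ± 0.50 for Hsd11b1 (adjusted p = 0.000188), with every bladder library above every urethral one. Without E18.5 urethral replicate 3 it was 4.40. Zbtb16 (log2 difference 2.32 ± 0.35, adjusted p = 0.000329) and Fkbp5 (log2 difference 1.23 ± 0.15, adjusted p = 5.8e-05) were higher in bladder in each library as well. Sgk1 stood 2.28-fold lower in bladder (log2 difference -1.19 ± 0.20, adjusted p = 0.000515), again without overlap. Mt1 was called higher in bladder (log2 difference 2.08 ± 0.59, adjusted p = 0.0176), a call that ended in 4 of 14 alternatives, namely without E18.5 bladder replicate 3, without E18.5 urethral replicate 1 or 2, or with no low-count filter (adjusted p from 0.0677 to 0.0771).

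Klf9 and Mt2 missed the threshold between the E18.5 compartments (log2 difference 0.67 ± 0.29, adjusted p = 0.0912 for Klf9; log2 difference 1.79 ± 0.75, adjusted p = 0.0909 for Mt2). With the replicate number as a block, which the check of the E18.5 samples allows, both were called (adjusted p = 0.00942 for Klf9 and 0.0237 for Mt2), which made 7 of 10. Hsd11b2, Tsc22d3 and Per1 were not called between the compartments at E18.5, with log2 differences of -0.56 (95% interval -1.40 to 0.27), 0.23 (-0.04 to 0.51) and 0.37 (-0.10 to 0.84).

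At E14.5 only Hsd11b1 (log2 difference 2.27 ± 0.56, adjusted p = 0.0121) and Fkbp5 (log2 difference 0.51 ± 0.15, adjusted p = 0.025) were called between the compartments, both higher in bladder, while 24.9% of all genes were called in either direction. Each bladder library lay above each urethral one for both genes, and the compartments did not overlap for 3 of the 10 genes in all, against 37.7% of all genes. Fkbp5 lost the call in 6 of 14 alternatives (adjusted p from 0.0161 to 0.0802 over all 14) and Hsd11b1 lost it without replicate 1 of both groups (1.78, adjusted p = 0.0735). Tsc22d3 was lower in all 3 bladder libraries than in any urethral one but not called (log2 difference -0.33 ± 0.12, adjusted p = 0.0605), and Sgk1 overlapped and was not called (log2 difference -0.49 ± 0.19, adjusted p = 0.0838).

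**Figure D4:**
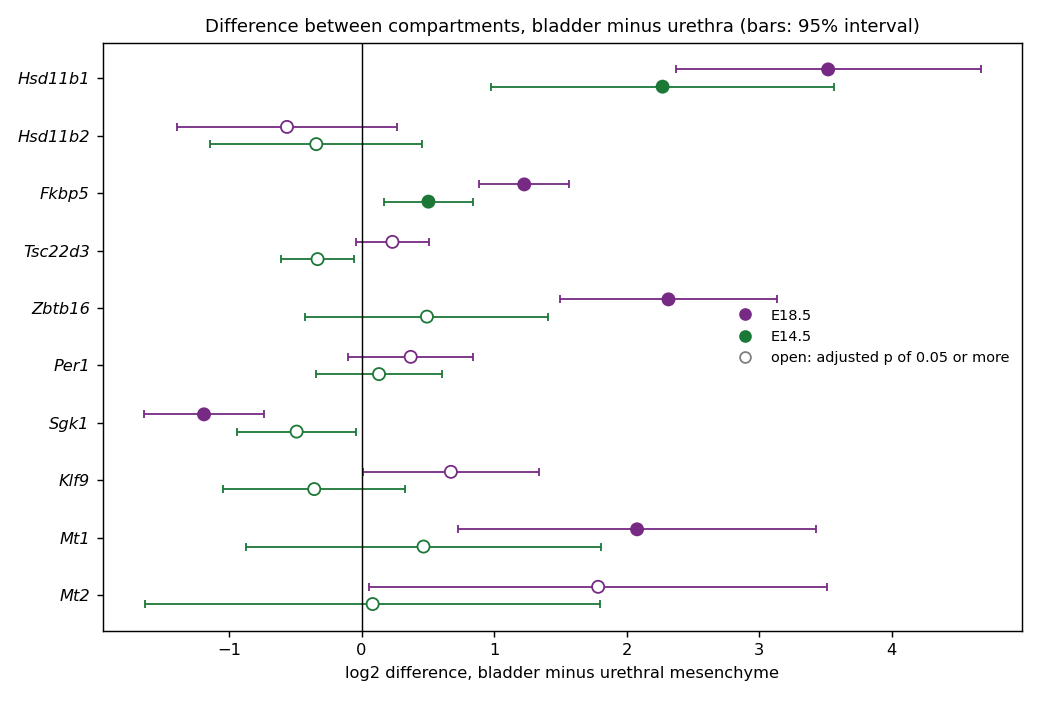
Log2 difference between compartments (bladder minus urethral mesenchyme) of each of the 10 genes at E18.5 and at E14.5, with 95% intervals; filled points have an edgeR adjusted p under 0.05. Hsd11b1 and Fkbp5 are called right of 0 at both stages, Zbtb16 and Mt1 are called right of 0 at E18.5 only, and Sgk1 is the one called left of 0, at E18.5.

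The change of the stage difference between compartments was tested as an interaction, bladder minus urethra. It called 1 of 10 genes, Fkbp5 (log2 difference 0.72 ± 0.21, adjusted p = 0.0473), while 8.67% of all genes were called. Calls of an interaction rest on the difference of 2 differences: on simulated data with the same library sizes, 23% of 2-fold and 74% of 4-fold interactions were recovered. The simulation changed 200 genes in 1 group, while the data called 1631, so recovery in the data can differ. The Fkbp5 call ended in 14 of 19 alternatives, among them leaving out any of the 12 libraries other than E14.5 urethral replicate 2 (adjusted p from 0.0217 to 0.114 over all alternatives). Zbtb16 (log2 difference 1.82 ± 0.53, adjusted p = 0.0507) and Tsc22d3 (log2 difference 0.57 ± 0.17, adjusted p = 0.0578) missed the threshold narrowly. Sgk1 differed in the other direction, rising less in bladder, and was not called (log2 difference -0.70 ± 0.27, adjusted p = 0.137). Of the remaining 6, Hsd11b2 and Per1 had the smallest estimates, -0.22 (95% interval -1.37 to 0.93) and 0.24 (-0.43 to 0.91). Without replicate 1 of both E14.5 groups 4 genes were called, Tsc22d3, Zbtb16, Klf9 and Mt1 (adjusted p from 0.0117 to 0.0416), and Fkbp5 was not. With the replicate number as a block, 4 were called, Zbtb16 (adjusted p = 0.0317), Sgk1 (0.0405), Klf9 (0.0255) and Mt1 (0.0103), and Fkbp5 was not (0.0845). The check of the numbers allows such pairs at E18.5 and does not settle them at E14.5.

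Other genes of the pathway were read from lists chosen for their known roles, but with earlier results of these data known. The counts below therefore describe the lists and are no independent support. Each stands beside 23.7% of all genes called higher and 22.0% called lower in bladder, and 13.6% and 10.8% in urethra. Of 37 tested further glucocorticoid-induced genes, 24 rose and 3 fell in bladder (median log2 difference 0.89), and 21 rose and 1 fell in urethra (median 0.75). The cell cycle inhibitor Cdkn1a rose in bladder (65.3 ± 9.24 CPM at E18.5 against 7.31 ± 3.21 CPM at E14.5, SD, n = 3 each; log2 difference 3.16 ± 0.46, adjusted p = 0.000315) and in urethra (log2 difference 2.55 ± 0.45, adjusted p = 0.00291). Scnn1g, a subunit of the epithelial sodium channel that Sgk1 sustains, rose in bladder (47.9 ± 10.2 CPM at E18.5 against 4.66 ± 4.61 CPM at E14.5; log2 difference 3.37 ± 0.66, adjusted p = 0.00184), beside the epithelial markers given above. Pck1, an enzyme of gluconeogenesis, had 1.09 ± 0.359 CPM in E18.5 bladder and 0.113 ± 0.126 CPM in E14.5 bladder, a low level (log2 difference 3.19 ± 0.88, adjusted p = 0.0105). The secreted siderophore carrier Lcn2 was called higher in bladder (adjusted p = 0.0327) and urethra (adjusted p = 0.0102) with 37 counts over the 3 E18.5 bladder libraries against 4 over E14.5 bladder, and 38 against 0 in urethra. Ddit4, the most abundant listed gene that was not called at either compartment's stage comparison, had 103 ± 24.7 CPM in E18.5 bladder against 117 ± 14.9 CPM in E14.5 bladder (log2 difference -0.19 ± 0.24, adjusted p = 0.544).

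Of 11 receptor and chaperone genes, 2 rose and 5 fell in bladder, and 2 rose in urethra, shares of higher calls near those of all genes. The glucocorticoid receptor itself, Nr3c1, named here after its values were seen, rose in bladder (127 ± 18.3 CPM at E18.5 against 89.2 ± 6.87 CPM at E14.5; log2 difference 0.51 ± 0.15, adjusted p = 0.0139) and in urethra (87.8 ± 6.60 CPM at E18.5 against 59.9 ± 11.95 CPM at E14.5; log2 difference 0.55 ± 0.15, adjusted p = 0.0178). Nr3c2, the mineralocorticoid receptor, which also binds glucocorticoid, rose in bladder (4.68 ± 0.441 CPM at E18.5 against 1.36 ± 0.571 CPM at E14.5; log2 difference 1.79 ± 0.34, adjusted p = 0.00104) and in urethra (4.24 ± 0.669 CPM at E18.5 against 2.02 ± 0.579 CPM at E14.5; log2 difference 1.08 ± 0.32, adjusted p = 0.0305). The receptor's co-chaperones Ptges3, the p23 protein (log2 difference -0.79 ± 0.13, adjusted p = 0.000392), Fkbp4 (log2 difference -0.65 ± 0.14, adjusted p = 0.00295) and Stip1 (log2 difference -0.56 ± 0.15, adjusted p = 0.00976) fell in bladder, where Fkbp5 rose, and none of the 3 was called in urethra (adjusted p = 0.0511, 0.0536 and 0.0705). Hsp90ab1, the chaperone that holds the receptor ready for hormone, was the most abundant of the list that was called in neither compartment (2258 ± 177 CPM at E18.5 against 2455 ± 113 CPM at E14.5 in bladder; log2 difference -0.12 ± 0.13, adjusted p = 0.458). Of 10 coregulators, 2 rose in bladder, a share near that of all genes: the coactivators Ncoa1 (log2 difference 0.58 ± 0.16, adjusted p = 0.0114) and Ncoa3 (log2 difference 0.51 ± 0.10, adjusted p = 0.00107). In urethra Ncoa1 rose (log2 difference 0.54 ± 0.16, adjusted p = 0.0305), and the chromatin remodeller Smarca4 (log2 difference -0.46 ± 0.13, adjusted p = 0.0204) and the mediator subunit Med1 (log2 difference -0.38 ± 0.12, adjusted p = 0.0368) fell.

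Steroid synthesis and metabolism genes were mostly at low levels, and 8 of 16 were tested. Of these, 4 rose and 2 fell in bladder, and 3 rose in urethra. Srd5a1, a 5α-reductase that reduces glucocorticoids as well as androgens, rose in bladder (308 ± 62.4 CPM at E18.5 against 24.01 ± 16.2 CPM at E14.5; log2 difference 3.68 ± 0.44, adjusted p = 9.08e-05) and in urethra (64.01 ± 14.2 CPM at E18.5 against 21.6 ± 5.55 CPM at E14.5; log2 difference 1.57 ± 0.41, adjusted p = 0.0183). Its relative Srd5a2 fell in bladder (0.0374 ± 0.0647 CPM at E18.5 against 0.764 ± 0.756 CPM at E14.5; log2 difference -4.15 ± 1.05, adjusted p = 0.00684). Cyp11b1, which makes corticosterone in the adrenal cortex, fell in bladder (0.360 ± 0.206 CPM at E18.5 against 2.54 ± 0.491 CPM at E14.5; log2 difference -2.86 ± 0.67, adjusted p = 0.00403). Summed over 4 adrenal cortex markers, Cyp11b1 among them, levels were 1.31 to 2.31 CPM in E18.5 bladder, 3.06 to 3.29 CPM in E14.5 bladder, 0.863 to 1.15 CPM in E18.5 urethra and 0.294 to 1.44 CPM in E14.5 urethra, and Cyp21a1 held 0 to 4 counts over a group. The drug and steroid efflux pump Abcb1a rose in bladder (log2 difference 1.20 ± 0.29, adjusted p = 0.00461) and in urethra (9.32 ± 0.833 CPM at E18.5 against 1.82 ± 0.766 CPM at E14.5; log2 difference 2.36 ± 0.29, adjusted p = 0.00038).

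Genes that share an inducer with some of the 10 were read in the same way. Of 17 other clock genes, 12 rose in bladder and 5 in urethra. Npas2, a partner of the activator Bmal1, rose in bladder to 10.4 ± 1.08 CPM at E18.5, against 0.586 ± 0.294 CPM at E14.5 (log2 difference 4.15 ± 0.35, adjusted p = 8.6e-06). So did the repressors Bhlhe40 (log2 difference 2.16 ± 0.40, adjusted p = 0.0012) and Bhlhe41 (log2 difference 1.87 ± 0.42, adjusted p = 0.00324) and the nuclear receptor Nr1d1 (log2 difference 1.90 ± 0.29, adjusted p = 0.000246). Of 19 immediate early genes, which answer serum, stress and tissue handling, 9 rose and 1 fell in bladder, and 13 rose in urethra. Fos (23.8 ± 7.30 CPM at E18.5 against 2.82 ± 2.03 CPM at E14.5 in bladder, log2 difference 3.08 ± 0.44, adjusted p = 0.000173; 24.8 ± 5.28 CPM at E18.5 against 4.78 ± 1.21 CPM at E14.5 in urethra, log2 difference 2.37 ± 0.42, adjusted p = 0.00238) and Junb (log2 difference 2.76 ± 0.26, adjusted p = 1.37e-05 in bladder; log2 difference 2.14 ± 0.25, adjusted p = 0.000314 in urethra) rose in both. Fosb (log2 difference 4.50 ± 0.98, adjusted p = 0.00824) and Atf3 (log2 difference 3.05 ± 0.64, adjusted p = 0.00591) were called higher in urethra. Their part in the changes of Per1, Klf9 and Sgk1, which stress and serum also induce, was not tested.

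Of 12 other Klf factors, 6 rose and 3 fell in bladder, and 7 rose and 1 fell in urethra. The factor Klf14 fell in bladder (log2 difference -1.50 ± 0.23, adjusted p = 0.000235) and rose in urethra (log2 difference 0.88 ± 0.23, adjusted p = 0.0147). Klf10 (log2 difference 1.18 ± 0.15, adjusted p = 8.13e-05) and Klf5 (log2 difference 2.22 ± 0.45, adjusted p = 0.00233) were among those that rose in bladder and Klf12 among those that fell (log2 difference -1.58 ± 0.21, adjusted p = 0.00011). Of 12 genes of metal response and zinc transport, 3 rose in bladder, a share near that of all genes: the glutathione synthesis subunits Gclm (log2 difference 0.82 ± 0.14, adjusted p = 0.000538) and Gclc (log2 difference 0.51 ± 0.12, adjusted p = 0.00376) and the zinc importer Slc39a8 (log2 difference 0.79 ± 0.18, adjusted p = 0.00296). In urethra Slc39a8 rose (log2 difference 0.65 ± 0.17, adjusted p = 0.018) and the zinc importer Slc39a10 fell (log2 difference -0.50 ± 0.14, adjusted p = 0.0217), beside the uncalled Mt1 and Mt2. Of 12 relatives and partners of Sgk1, Fkbp5 and Tsc22d3, 3 rose and 5 fell in bladder. In urethra edgeR called 0 of them at an adjusted p under 0.05 and 5 at an unadjusted p under 0.05. The relative Tsc22d4 rose (log2 difference 0.89 ± 0.13, adjusted p = 0.000185) and the endoplasmic reticulum protein Fkbp7 fell (log2 difference -0.74 ± 0.16, adjusted p = 0.00223) in bladder. Nedd4l, a ubiquitin ligase that Sgk1 restrains, rose in bladder (165 ± 21.99 CPM at E18.5 against 32.5 ± 10.1 CPM at E14.5; log2 difference 2.35 ± 0.21, adjusted p = 1.07e-05).

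The most abundant genes of these lists that were called in neither compartment showed small differences or wide errors. The bladder log2 difference was -0.33 for Klf11, 0.01 for the clock output factor Tef, 0.25 for the zinc importer Slc39a1, -0.16 for Jund, -0.25 for Tsc22d1 and 1.53 ± 0.71 for the efflux pump Abcb1b (adjusted p = 0.0959).

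**Figure D5:**
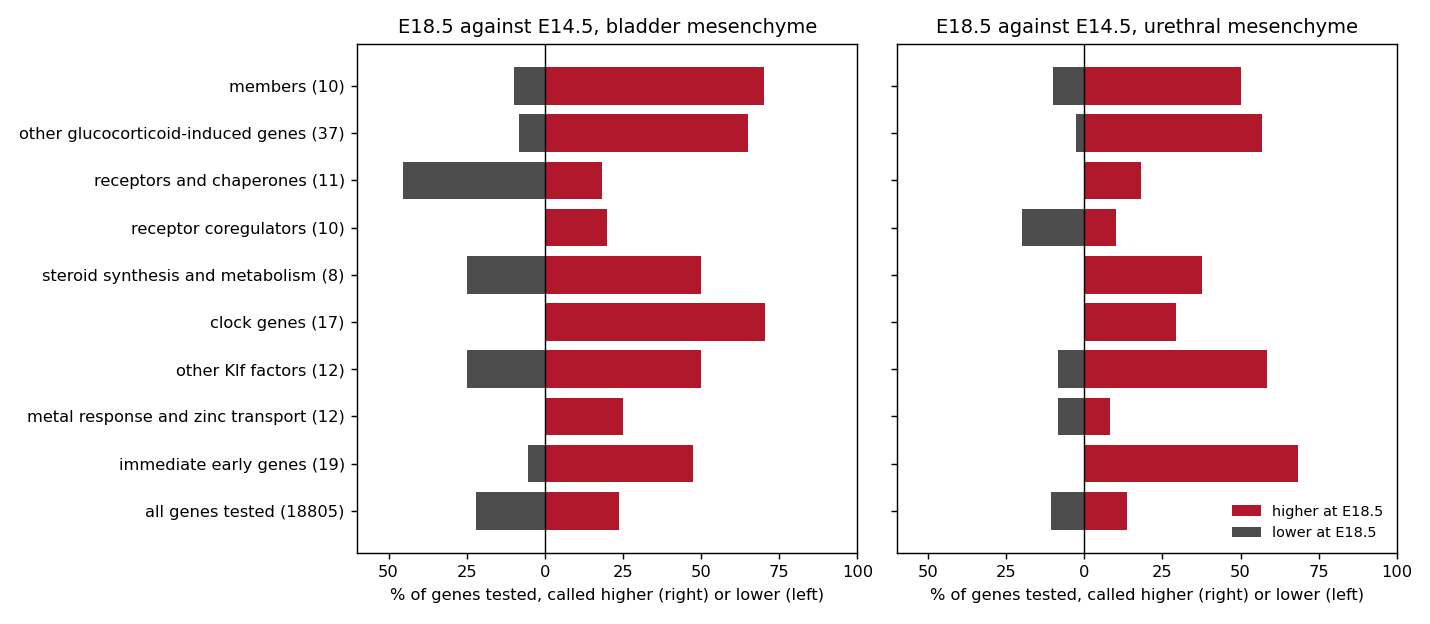
Share of the tested genes of each list, with their number in parentheses, that edgeR called higher (right of 0) or lower (left of 0) at E18.5 than at E14.5, in bladder mesenchyme at left and urethral mesenchyme at right. The 10 genes (top bar), the further glucocorticoid-induced genes, the clock, immediate early and other Klf genes and the steroid metabolism genes extend further right than all genes tested (bottom bar) in both compartments, and the other lists do not in both.

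Of all other genes tested, leaving out predicted genes and pseudogenes, those whose log2 CPM over the 12 libraries most resembled that of each of the 10 are given as a description. The 12 libraries form 4 groups, so that likeness mostly reflects the 4 group means, and no test was made. Pearson's r was 0.982 with Tep1 and 0.978 with Cd200r3 for Hsd11b1 and 0.980 with Styk1 and 0.980 with Rnf6 for Zbtb16. It was 0.990 with Mapkapk3 and 0.990 with Tnfaip2 for Klf9, 0.982 with Nbeal2 and 0.981 with Mtss1 for Per1, 0.970 with Mfsd9 and 0.967 with Mgarp for Mt1 and 0.932 with Lrrc1 and 0.917 with Bicd1 for Mt2. For Fkbp5 it was 0.981 with Dhcr7 and 0.978 with Ero1l, with Dhcr7 the last enzyme of cholesterol synthesis. For Hsd11b2 it was 0.974 with Lhpp and 0.973 with Zfp35, for Sgk1 0.972 with Gpr34 and 0.964 with Cacng5 and for Tsc22d3 0.846 with Pid1 and 0.841 with Tbx2, the lowest of the 10.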

How the data were processed

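The values are raw read counts per gene, one table for each stage, as deposited by the authors. Per the labels' protocols, poly(A) RNA was made into strand-specific libraries and sequenced as read pairs; per the submitters' processing notes, bcl2fastq, HISAT2 2.2.1, SAMtools 1.9 and GRCm38 were used. The counter, its strand setting and the annotation are not given in the sources used here. Values of 2 were 2.06 to 2.51 times as frequent as values of 1 in each library, a pattern that counting a pair's reads separately gives. Gene positions are those of the count tables, set beside GENCODE M21, where the 10 genes have the same position.

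The 12 libraries were fitted in 1 model of 4 group means with edgeR 4.0.16 in R 4.3.3 (quasi-likelihood F test, TMM scaling, filterByExpr with a minimum count of 10), and p-values were adjusted by Benjamini-Hochberg over the 18805 genes tested in each of 5 comparisons. SE is the log2 difference divided by the square root of F. DESeq2 1.42.0 and limma 3.58.1 (voom) were alternatives. On simulated counts with 200 changed genes, 57% of 2-fold and 87% of 4-fold changes were recovered in the bladder stage comparison and 50% and 85% in the urethral one, with 5.26% and 6.25% of calls false. The data called 8597 and 4586 genes in these comparisons, so recovery there can differ. The 10 genes and all lists were chosen with earlier results of these data known. From each list, the text names up to 4 tested genes with the largest stage differences past the threshold and the most abundant tested gene called in neither compartment; for each of the 10 genes it names the 2 tested genes of highest r. A gene that this rule picks among the coregulators is not reported here. Markers of 12 cell types were summed; of the lists not given in the text, 1 of 6 endothelial genes was called lower in bladder and 2 of 6 higher in urethra, and 2 of 5 neuronal genes were called lower in bladder.

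No label ties replicate numbers to litters. Over genes, the correlations between E18.5 bladder and urethra libraries of 1 number, as deviations from each group's mean, were 0.197, 0.193 and 0.286. Pairing by number was therefore taken as allowed at E18.5. At E14.5 the correlations were 0.191, -0.0285 and 0.206, which does not settle whether those samples are pairs. The main model held no pairing, and the replicate number entered only as a block in an alternative run. No 2 replicates agreed within sampling noise.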

Additional observations from a re-analysis of the deposited data

Results flagged for a closer look

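Results here are genes named in the text for which the interaction test found that the stage difference differed between bladder and urethra (edgeR's quasi-likelihood test, Benjamini-Hochberg adjusted p under 0.05). The value for each is the bladder log2 stage difference minus the urethral one. Among the 10 genes this was Fkbp5, at 0.72 (adjusted p = 0.0473). Larger rises in bladder were found for Srd5a1 at 2.11 (adjusted p = 0.0435), Npas2 at 2.03 (adjusted p = 0.0179), Nedd4l at 1.89 (adjusted p = 0.00309) and Nr1d1 at 1.59 (adjusted p = 0.0306). The values were smaller for Ncoa3, 0.68 (adjusted p = 0.01), and Gclc, 0.59 (adjusted p = 0.0461), both uncalled between stages in urethra. Differences in the other direction were found for Srd5a2 at -4.54 (adjusted p = 0.0378), Klf14 at -2.38 (adjusted p = 0.00184) and Fkbp7 at -1.13 (adjusted p = 0.00946). Klf14 fell in bladder and rose in urethra, each called. Srd5a2 had 0.0374 ± 0.0647 CPM in E18.5 bladder and 0.764 ± 0.756 CPM in E14.5 bladder (SD, n = 3 each), so that its value rests on few counts. Groups of 3 were too small to test for libraries that stand apart.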

How the results depend on the processing

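Over 50 results of the 10 genes and 750 recomputed values, 658 kept their direction and side of the threshold, 36 lost the call, 39 gained one and 17 changed sign. The stage differences of Hsd11b1, Fkbp5, Zbtb16, Per1, Klf9, Mt1 and Hsd11b2 in bladder, and of Zbtb16, Per1, Sgk1, Klf9 and Hsd11b2 in urethra, were called under each alternative run. The interaction count of 1 gene among the 10 became 3 with DESeq2, 0 with median-ratio factors, 2 with the stricter filter and 4 without replicate 1 of both E14.5 groups. Over all genes the interaction called 1631, against 2596 with DESeq2 and 2526 without replicate 1 of both E14.5 groups. At E14.5 the compartments differed in 4677 genes, against 3022 from only the libraries compared, and in 2 of the 10 genes, against 1 from only the libraries compared and 1 without replicate 1 of both groups. Leaving out 1 library at a time gave 6637 to 8566 genes and 7 to 8 of the 10 for the bladder stage comparison (8597 with all), and 2351 to 4654 and 5 to 6 for the urethral one (4586). It gave 999 to 2422 and 0 to 4 for the interaction, 2721 to 4894 and 1 to 3 between compartments at E14.5, and 5133 to 5633 and 4 to 6 at E18.5 (6535 with all). Fewer samples lower the power of each such fit; otherwise the cause of these shifts was not tested.

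With the replicate number as a block, 4 of the 10 genes had a called interaction. The block also added Sgk1 between compartments at E14.5 (-0.47, adjusted p = 0.0296), where pairing by number is unsettled. It added Mt2 between bladder stages (adjusted p = 0.0415), which came from separate litters. Beside all these, and Klf9 and Mt2 at E18.5, it changed no other call of the 10.

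Each value that changed sign belonged to an uncalled result. For Mt2 between compartments at E14.5 the log2 difference became -0.41 with voom, -0.36 with the block and -0.94 without replicate 1 of both groups, and ran from -1.22 to 0.53 with 1 library left out. With 1 library left out, Per1 ran from -0.17 to 0.29, Mt1 from -0.41 to 0.95 and Klf9 from -0.75 to 0.030 in that comparison, and Per1 was -0.11 without replicate 1 of both groups. The Hsd11b2 interaction ran from -0.53 to 0.12 and was 0.11 without replicate 1 of both E14.5 groups. In the urethral stage comparison Fkbp5 ran from -0.080 to 0.17 and Mt2 from -0.078 to 0.50. Depth limits Hsd11b1 in E14.5 urethra, with 6 to 18 counts a library.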
